A study of Mus musculus with 6 samples.

Results

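The miR-17-92 cluster is a polycistron: 1 primary transcript, Mir17hg, carries 6 miRNA hairpins that are cut out one after the other and processed to mature miRNAs. The 8 mature arms described here were chosen by name, and all 8 were present among the 1900 mature miRNA names of each deposited count table. Where a name was listed under several hairpins, the largest count in each library was used. Small RNA came from the renal cortex of C57BL/6 mice, 1 library per mouse. The 3 diet-only mice (NASH libraries) received for 8 weeks the HF/HC/HS/BA diet, which is rich in fat and cholesterol and contains bile salt. The 3 tofogliflozin mice (NASHTofo libraries) received that diet with tofogliflozin added, also for 8 weeks. All 6 mice were thus on the steatohepatitis diet, so the values show the drug on that diet and not the diet itself. Tofogliflozin inhibits SGLT2, the glucose transporter of the proximal tubule. The sources used here do not give its dose or the age of the mice, and mice on a normal diet were not analysed here.

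Mature miRNAs repress messenger RNAs that pair with their seed, bases 2 to 8 from the 5′ end, so arms with the same seed are expected to act on overlapping targets. The cluster is known as a driver of proliferation (its older name is oncomir-1). Myc and E2F transcription factors induce it, and it is required for normal nephron progenitor expansion in the developing kidney. The miR-17 and miR-20a arms are known to repress the cell cycle inhibitor p21 and the TGF-β receptor TGFBR2. The miR-92a arm is known for integrin α5 and KLF2 as endothelial targets, and miR-18a for the TGF-β pathway and connective tissue growth factor.

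The mature sequences are shown because the seeds divide the 8 arms into families that recur in the results. They were taken from RefSeq (GRCm38.p6), which held all 8 names, and are written 5′ to 3′ with the seed in capitals. The first pair shares the seed AAAGUGC, the miR-19 pair shares GUGCAAA, and each of the other 4 arms has a seed of its own.
mmu-miR-17-5p: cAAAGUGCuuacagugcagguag
mmu-miR-20a-5p: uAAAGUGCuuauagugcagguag
mmu-miR-19a-3p: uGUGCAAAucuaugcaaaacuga
mmu-miR-19b-3p: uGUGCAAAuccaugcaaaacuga
mmu-miR-18a-5p: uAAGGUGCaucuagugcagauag
mmu-miR-92a-3p: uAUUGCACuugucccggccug
mmu-miR-17-3p: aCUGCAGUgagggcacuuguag
mmu-miR-18a-3p: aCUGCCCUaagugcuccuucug

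The arms were 21 to 23 bases long, and their counts were compared without scaling to length. miR-17-5p and miR-20a-5p differed at 2 bases, and miR-19a-3p and miR-19b-3p at 1. Content of G and C ran from 34.8% in miR-19a-3p to 57.1% in miR-92a-3p.

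The 6 hairpins lie within 836 bases at chr14:115043671-115044506 on the plus strand of mm10, in the order mir-17, mir-18a, mir-19a, mir-20a, mir-19b-1 and mir-92a-1. In GENCODE M21 all 6 fall inside exon 2 of the 2-exon non-coding transcript Mir17hg-201, whose gene spans chr14:115042879-115046727. For the mir-17 hairpin, the only one of the 6 with 2 arms that each carried over 40 counts in 5 of the 6 libraries, the sequence is shown with both arms in capitals, 5p first, at chr14:115043671-115043754.
mir-17: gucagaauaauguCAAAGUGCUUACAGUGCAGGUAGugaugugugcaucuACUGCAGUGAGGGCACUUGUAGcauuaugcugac

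miR-19b-3p and miR-92a-3p are not made from this transcript alone. The same mature miR-19b-3p sits in a hairpin of a paralogous cluster on the X chromosome, mir-19b-2, and the same miR-92a-3p sits in mir-92a-2 beside it. Both 19b hairpins are shown with their arms in capitals, mir-19b-1 at chr14:115044305-115044391 (plus strand) and mir-19b-2 at chrX:52741983-52742066 (minus strand).
mir-19b-1: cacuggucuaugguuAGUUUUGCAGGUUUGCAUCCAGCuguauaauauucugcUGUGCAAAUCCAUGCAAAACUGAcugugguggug
mir-19b-2: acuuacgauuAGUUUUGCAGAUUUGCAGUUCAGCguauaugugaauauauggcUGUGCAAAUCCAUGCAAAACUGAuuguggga

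The 3p arm in capitals is the same in both, and the counts listed under the hairpins were nearly the same too. The miR-19b-3p count under mir-19b-1 was 433, 306 and 294 in diet-only mice 1, 2 and 3, against 437, 310 and 295 under mir-19b-2. In tofogliflozin mice 1, 2 and 3 it was 331, 185 and 384, against 334, 185 and 385. The rows therefore hold largely the same number of reads and cannot be split between the chromosomes. For miR-92a-3p the rows differed. Under mir-92a-1 there were 42201, 28061 and 29582 counts in diet-only mice 1, 2 and 3, and 8162, 6474 and 5530 under mir-92a-2. In tofogliflozin mice the counts were 32398, 17122 and 38706 under mir-92a-1, and 6251, 2805 and 8286 under mir-92a-2. The row of the chromosome 14 hairpin was thus 4.33 to 6.10 times that of the X chromosome hairpin, and the groups overlapped in this ratio (4.33 to 5.35 on the diet alone, 4.67 to 6.10 with tofogliflozin). How reads that match both were assigned is not given in the sources used here.

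Total counts per library, with each name counted once, were 6643638 to 22886200, lowest in tofogliflozin mouse 2. That library also stood apart from the other 5 on the first principal component of all tested miRNAs, which held 52% of the variance, so the values it moves most are given with and without it. As a check of the tissue, 6 miRNAs abundant in kidney tubules (miR-192-5p, miR-194-5p, miR-204-5p, miR-30a-5p, miR-10a-5p and miR-10b-5p) summed to 219300 to 228700 CPM in diet-only mice, and to 218300 to 238100 CPM in tofogliflozin mice, where CPM is counts per 1000000 counts of the library. Of 2 neuronal markers, miR-124-3p was at 0 in every library and miR-9-5p was not, their sum being 269 to 375 CPM in diet-only and 300 to 413 CPM in tofogliflozin mice. The 4 striated muscle miRNAs summed to 93.3 to 125 and 93.0 to 118 CPM.

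The cluster was a small part of the cortical miRNA pool, and nearly all of it was miR-92a-3p. Together the 8 arms held 1970, 2082 and 2086 CPM in diet-only mice 1, 2 and 3, and 2519, 2822 and 2370 CPM in tofogliflozin mice 1, 2 and 3. All 3 tofogliflozin values lay above all 3 diet-only values. That separation came with miR-92a-3p: the other 7 arms summed to 126, 116 and 143 CPM in diet-only mice and to 166, 245 and 125 CPM in tofogliflozin mice, which overlapped. In bulk cortex, a change in the number of cells of a type and a change in RNA per cell cannot be told apart. miR-92a-3p took 93.4% ± 1.2 of that sum (SD, n = 6), followed by miR-20a-5p with 2.98% ± 0.733, miR-17-5p with 1.92% ± 0.475 and miR-19b-3p with 0.972% ± 0.0403. The least abundant were miR-19a-3p with 0.422% ± 0.0738, miR-17-3p with 0.121% ± 0.050, miR-18a-3p with 0.105% ± 0.0198 and miR-18a-5p with 0.0405% ± 0.0135. Among all names, miR-92a-3p ranked 40 by mean CPM, miR-20a-5p 147, miR-17-5p 171 and miR-18a-5p 417. The mean over the 6 libraries ran from 0.943 CPM (miR-18a-5p) to 70.2 CPM (miR-20a-5p) among the 6 arms encoded on chromosome 14 alone, and was 2155 CPM for miR-92a-3p. Levels of different miRNAs in such counts also depend on how well each is captured in the library, which was not measured here.

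**Figure D1:**
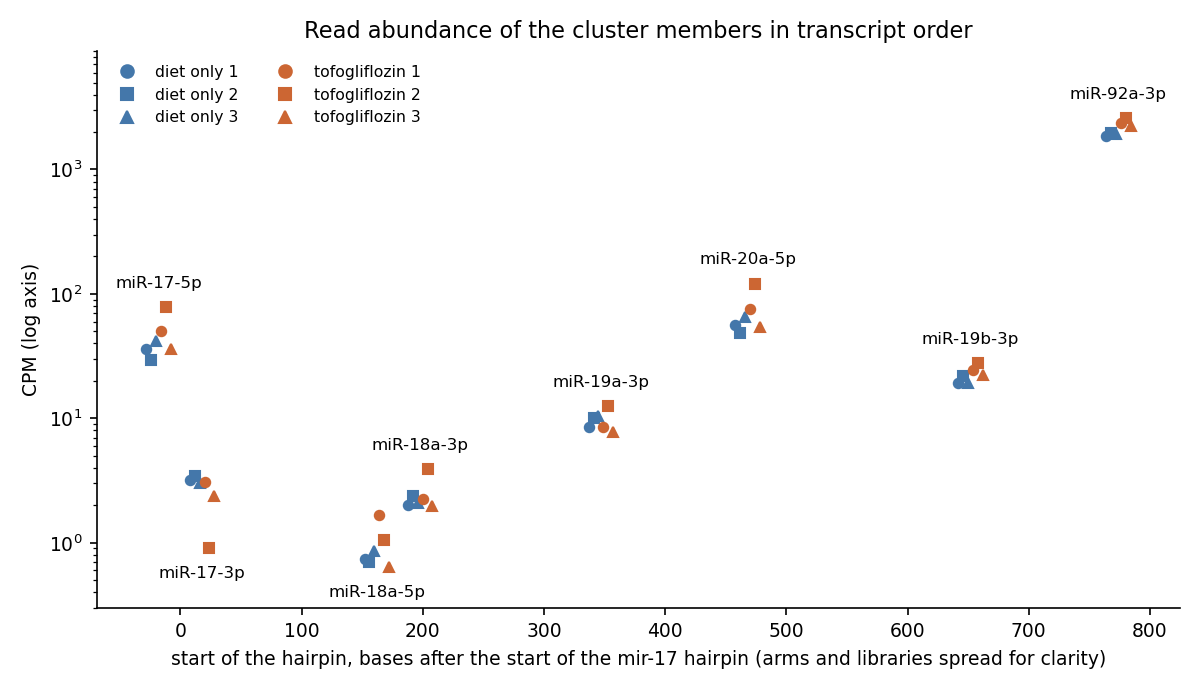
CPM (log axis) of the 8 arms in each of the 6 libraries, placed by the start of their hairpin in bases after the start of mir-17; colours are the groups and marker shapes the mice. miR-92a-3p, from the last hairpin, stood at 1844 to 2577 CPM, and both arms of mir-18a, the second hairpin, at or under 3.91 CPM.

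The order of the levels was the same in all 6 libraries for most neighbours. miR-92a-3p exceeded miR-20a-5p, which exceeded miR-17-5p, miR-19b-3p and miR-19a-3p in turn, in every library. miR-17-3p and miR-18a-3p changed places: the ratio of their counts was 1.21 to 1.59 in 5 libraries and 0.231 in tofogliflozin mouse 2. miR-18a-3p exceeded miR-18a-5p in every library, by counts of 26 to 46 against 7 to 23.

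Of the other arms of the same hairpins, 3 of 4 were at or near the detection limit. miR-19a-5p had 0 counts in all 6 libraries, which allows up to 0.131 to 0.452 CPM (3 counts of each library's total, counting error only). miR-19b-1-5p had 0 to 3 counts, and miR-20a-3p 0 to 4. miR-92a-1-5p had 3 to 26 counts and was the only one of these 4 to pass the filter on low counts, with a log2 fold change of 0.19 ± 0.64 (SE) that was below 0 without diet-only mouse 3 or tofogliflozin mouse 3.

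The comparison of interest was between the groups, tofogliflozin minus diet only. In edgeR's quasi-likelihood test across 460 miRNAs, 0 of the 8 members passed an adjusted p of 0.05, where 0% of all tested miRNAs did. All 8 members passed the filter on low counts. Of them 6 had a log2 fold change above 0 and 2 below, with a median of 0.27 (0.18 without tofogliflozin mouse 2), where 226 of all 460 tested (49.1%) were above 0 and the median was -0.005. At an unadjusted p under 0.05 there was 1 member, miR-92a-3p, where 5% of all tested were (23, of which 12 or 2.61% of all tested were higher). DESeq2 called 2 of all tested miRNAs and limma-voom 0, and neither called a member.

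miR-92a-3p, the dominant arm, stood at 1844, 1966 and 1943 CPM in diet-only mice 1, 2 and 3. It stood at 2353, 2577 and 2245 CPM in tofogliflozin mice 1, 2 and 3. Every tofogliflozin library was above every diet-only library. In edgeR its log2 fold change came to 0.28 ± 0.11 (SE), 95% interval 0.02 to 0.55, at an unadjusted p of 0.0392 and an adjusted p of 0.854 by edgeR. The exact 2-sided permutation test gave 0.1, which is the lowest p this design of 3 mice per group can reach. With each library left out the log2 fold change ran from 0.23 without tofogliflozin mouse 2 to 0.37 without tofogliflozin mouse 3, and the adjusted p over all alternatives was 0.268 to 0.988. The unadjusted p was above 0.05 in 4 of 6 fits with a library left out, and also with upper quartile factors (0.142), the replicate block (0.0899) or every miRNA with a count kept (0.115), all by edgeR.

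miR-19b-3p was the other arm whose groups did not overlap in CPM. It stood at 19.1, 21.7 and 19.4 CPM in diet-only mice 1, 2 and 3. In tofogliflozin mice 1, 2 and 3 it stood at 24.3, 27.9 and 22.3 CPM. The groups lay just apart, the lowest tofogliflozin value above the highest diet-only value by less than 1 CPM. With CPM divided by the TMM factors the groups overlapped, diet-only mouse 2 standing at 22.7 and tofogliflozin mouse 3 at 21.3, and with RLE factors they overlapped too. The estimate from edgeR was a log2 fold change of 0.27 ± 0.18 (SE; interval -0.15 to 0.68; adjusted p = 0.859). Among all tested miRNAs, groups did not overlap in 10.7% (6.74% with tofogliflozin higher), against 2 of these 8, both higher. With TMM-scaled CPM it was 12% of all tested against 1 of the 8, miR-92a-3p.

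The AAAGUGC arms miR-17-5p and miR-20a-5p showed a wide spread with tofogliflozin. miR-17-5p stood at 36.3, 29.6 and 41.6 CPM in diet-only mice 1, 2 and 3, and at 49.9, 77.8 and 35.8 CPM in tofogliflozin mice 1, 2 and 3. miR-20a-5p stood at 55.9, 48.2 and 65.5 CPM, and at 76.1, 121 and 54.4 CPM. For both arms tofogliflozin mouse 2 was highest of all libraries, tofogliflozin mouse 1 was next, and tofogliflozin mouse 3 lay within the diet-only range. The log2 fold change of miR-17-5p was 0.57 ± 0.29 (SE; interval -0.10 to 1.25; adjusted p = 0.854 by edgeR) and fell to 0.23 without tofogliflozin mouse 2. That of miR-20a-5p was 0.54 ± 0.29 (interval -0.14 to 1.21; adjusted p = 0.854 by edgeR) and fell to 0.18 without the same mouse. These point estimates are larger than that of miR-92a-3p, but so is their error, and the differences between arms in fold change are given below as ratios.

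Both arms below 0 had fewer counts. miR-19a-3p stood at 8.56, 10.1 and 10.5 CPM in diet-only mice 1, 2 and 3, against 8.57, 12.5 and 7.71 CPM in tofogliflozin mice, so the groups overlapped. Its log2 fold change was -0.07 ± 0.24 (SE), and was above 0 without diet-only mouse 2 (0.02), tofogliflozin mouse 1 (0.04) or tofogliflozin mouse 3 (0.11). miR-17-3p, the minor arm of mir-17, stood at 3.19, 3.43 and 3.02 CPM on the diet alone. With tofogliflozin it stood at 3.05, 0.903 and 2.38 CPM, the lowest value being 6 counts in mouse 2 (95% exact Poisson interval 0.331 to 1.97 CPM, counting error only). Tofogliflozin mouse 1 lay within the diet-only range, so the groups overlapped. The log2 fold change was -0.58 ± 0.40 (interval -1.50 to 0.34; adjusted p = 0.859 by edgeR), and -0.28 without tofogliflozin mouse 2.

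The mir-18a arms were the least abundant. miR-18a-5p had 17, 10 and 13 counts on the diet alone and 23, 7 and 11 with tofogliflozin, or 0.743, 0.700 and 0.854 CPM against 1.67, 1.05 and 0.638 CPM. Its groups overlapped (log2 fold change 0.51 ± 0.48, SE), and its value without tofogliflozin mouse 1 was 0.06. miR-18a-3p stood at 2.01, 2.38 and 2.10 CPM and at 2.25, 3.91 and 1.97 CPM, with tofogliflozin mouse 2 highest. Its log2 fold change of 0.24 ± 0.35 (SE) was -0.07 without that mouse.

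**Figure D2:**
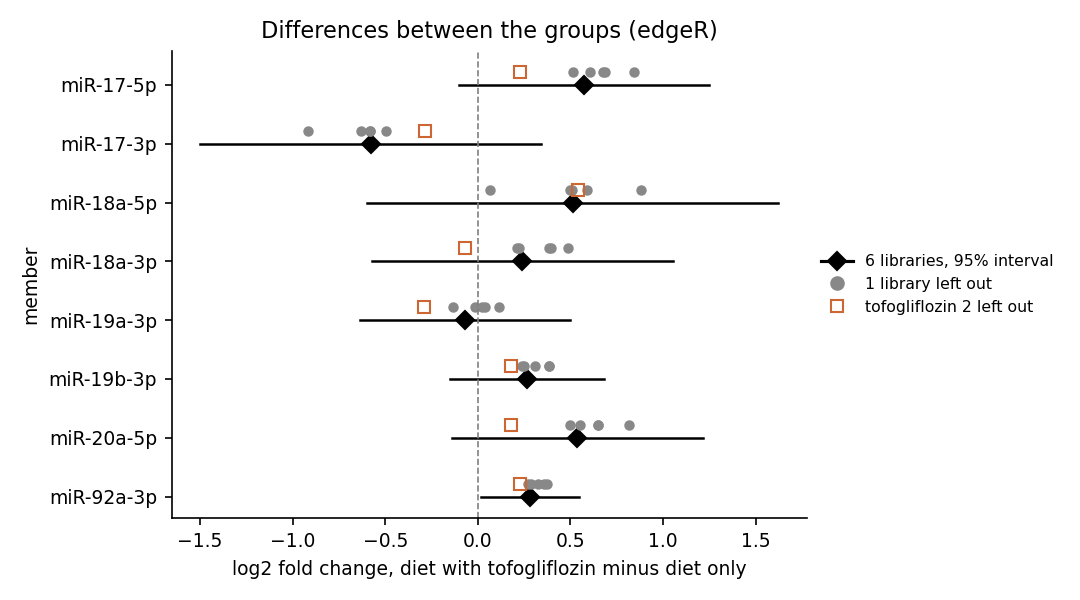
Log2 fold change of each member (tofogliflozin minus diet only, edgeR) with its 95% interval from all 6 libraries (diamonds and lines), and the values with 1 library left out (circles, or open squares where tofogliflozin mouse 2 was left out). The interval lay above 0 for miR-92a-3p alone, and leaving out tofogliflozin mouse 2 moved miR-17-5p from 0.57 to 0.23 and miR-20a-5p from 0.54 to 0.18.

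The counts of the arms relative to each other were compared next. All 8 are encoded in the one transcript, but ratios with miR-19b-3p or miR-92a-3p may also hold reads from the X chromosome. Such ratios need no scaling to library size. miR-17-5p and miR-20a-5p kept a nearly fixed ratio. There were 0.650, 0.615 and 0.635 counts of miR-17-5p per count of miR-20a-5p in diet-only mice 1, 2 and 3, and 0.656, 0.642 and 0.659 in tofogliflozin mice 1, 2 and 3. The SD of the log2 ratio was 0.0368 over the 6 libraries, where counting alone gives 0.0760, although miR-20a-5p itself ran from 48.2 to 121 CPM. Only 0.0104% of all 105570 pairs of tested miRNAs had as small an SD, and the median pair had 0.547. Those pairs were not matched for abundance, and low counts alone give a larger SD. The pair of miR-17-5p and miR-20a-5p was also the lowest of the 28 pairs of members. The arms differ at 2 bases, and whether a read could be listed under both is not given in the sources used here.

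Of the 28 pairs, 13 had an SD within 1.5 times that from counting, and all of these but 2 involve an arm of mir-18a, where the SD from counting was 0.25 or more. The other pair without a mir-18a arm was miR-19b-3p and miR-92a-3p. Per count of miR-92a-3p there were 0.0104, 0.0111 and 0.00997 counts of miR-19b-3p on the diet alone, and 0.0103, 0.0108 and 0.00995 with tofogliflozin. The SD of the log2 ratio was 0.0614, where counting gives 0.0834. These 2 arms share no seed. They come from the last 2 hairpins of the transcript and both are also encoded on the X chromosome. Whether either bears on their ratio was not tested.

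Ratios of miR-20a-5p to miR-92a-3p and of both AAAGUGC arms to miR-19 arms moved by more than counting. miR-20a-5p per miR-92a-3p was 0.0303, 0.0245 and 0.0337 on the diet alone and 0.0323, 0.0470 and 0.0242 with tofogliflozin, an SD of the log2 ratio of 0.352 where counting gives 0.0482. The highest and the lowest value were both tofogliflozin libraries, so the groups overlapped. The ratio of the near-identical miR-19a-3p to miR-19b-3p was 0.448, 0.465 and 0.542 on the diet alone and 0.353, 0.449 and 0.345 with tofogliflozin (SD of the log2 ratio 0.249, counting 0.151; exact permutation p = 0.2), again with overlap. miR-17-5p per miR-19a-3p was 4.24, 2.94 and 3.96 on the diet alone and 5.82, 6.23 and 4.65 with tofogliflozin, which did not overlap (exact permutation p = 0.1). Of the 28 pairs of members, 20 overlapped between the groups and 8 did not, where 11.1% of all pairs of tested miRNAs did not. Of those 8 pairs, 5 include miR-17-3p and the other 3 include miR-19a-3p. Pairs with a member in common share its counts, and the permutation p of all 28 was 0.1 or more, unadjusted.

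**Figure D3:**
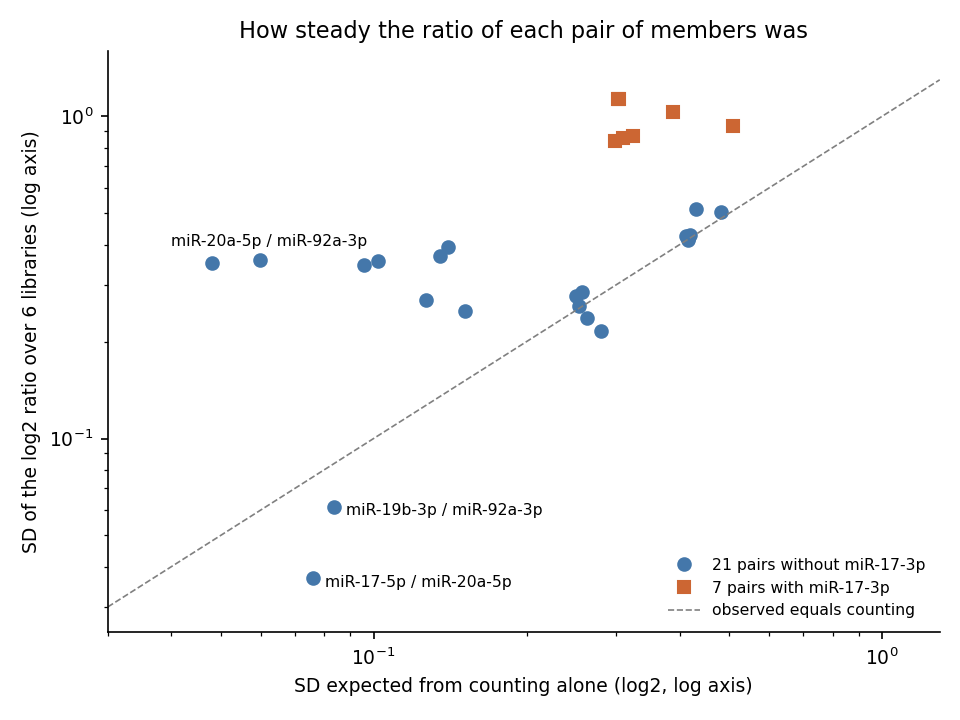
For each of the 28 pairs of members, the SD of the log2 count ratio over the 6 libraries against the SD that counting alone gives (both axes log); the dashed line marks equality. miR-17-5p with miR-20a-5p (0.0368) and miR-19b-3p with miR-92a-3p (0.0614) lie lowest, and the 7 pairs with miR-17-3p lie at 0.842 to 1.13.

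As shares of all 8 arms, no arm but miR-17-3p separated the groups. miR-92a-3p took 93.6%, 94.4% and 93.1% of the 8 arms on the diet alone and 93.4%, 91.3% and 94.7% with tofogliflozin. The difference of -0.579 percentage points (exact permutation p = 0.8) turned to 0.34 points without tofogliflozin mouse 2, the library with the lowest share. miR-17-3p took 0.162%, 0.165% and 0.145% on the diet alone and 0.121%, 0.0320% and 0.1% with tofogliflozin (exact permutation p = 0.1). Its difference of -0.0727 points was -0.0465 without tofogliflozin mouse 2. Among the 7 arms other than miR-92a-3p, miR-20a-5p was the largest part with 45.1% ± 2.68 and miR-17-5p next with 29.0% ± 2.05 (SD, n = 6). In that smaller sum miR-19a-3p also lay lower in each tofogliflozin library, at 6.81%, 8.69% and 7.35% on the diet alone and 5.17%, 5.10% and 6.16% with tofogliflozin (exact permutation p = 0.1, the smallest possible). Among the 6 arms encoded on chromosome 14 alone, 3 separated the groups, each at that smallest exact p. There miR-17-5p took 34.0%, 31.4% and 33.6% on the diet alone and 35.3%, 35.8% and 34.8% with tofogliflozin, a difference of 2.28 points. In the same sum the mean difference was -2.64 points for miR-19a-3p and -1.4 points for miR-17-3p, both lower with tofogliflozin. Shares were tested for 8, 7 and 6 arms in these sums, and their p-values are unadjusted. They are bound to add to 100%, so a lower share of some arms raises the others and the separations are not independent. Shares in sums of other miRNAs were not computed. Of single tested miRNAs, 10.7% did not overlap between the groups in CPM.

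Use of the 2 arms of a hairpin could be tested for mir-17, mir-18a and mir-92a-1. At mir-17, whose sequence is given above, the 5p arm made up 91.9%, 89.6% and 93.2% of both arms in diet-only mice 1, 2 and 3. With tofogliflozin it made up 94.2%, 98.9% and 93.8%. Tofogliflozin mouse 2 lay apart (95% Clopper-Pearson interval 97.5% to 99.6%, of 523 counts), and the other 2 tofogliflozin values lay just above the highest diet-only one. The log2 ratio of 5p to 3p, with 1 added to each count, was higher with tofogliflozin by 1.25 ± 0.62 (SE; interval -0.21 to 2.72). In limma across 139 hairpins that gave an unadjusted p of 0.0828 and an adjusted p of 0.99. None of the 139 passed (0%), and 1.44% were at an unadjusted p under 0.05. Groups did not overlap at mir-17, as at 7.19% of all hairpins tested. Without tofogliflozin mouse 2 the difference was 0.50, and over all alternatives its adjusted p was 0.419 to 0.992.

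At mir-18a the 3p arm, not the 5p arm, held most counts. The 5p arm made up 27.0%, 22.7% and 28.9% of both on the diet alone and 42.6%, 21.2% and 24.4% with tofogliflozin, of 33 to 63 counts in a library. Tofogliflozin mouse 1 was highest, with a Clopper-Pearson interval of 29.2% to 56.8% that overlaps those of the other libraries. The log2 ratio differed by 0.19 ± 0.39 (SE; adjusted p = 0.99 by limma), and by -0.22 without that mouse. At mir-20a the 5p arm made up at least 99.6% in every library, and at mir-19a all counts were of the 3p arm. At mir-92a-1 the 5p arm made up 0.0135% to 0.0677% on the diet alone and 0.0175% to 0.0671% with tofogliflozin (3 to 26 counts), so the groups overlapped. Its log2 ratio differed by -0.002 ± 0.62 (SE; interval -1.47 to 1.47; adjusted p = 1.0 by limma), with either sign when 1 library was left out.

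**Figure D4:**
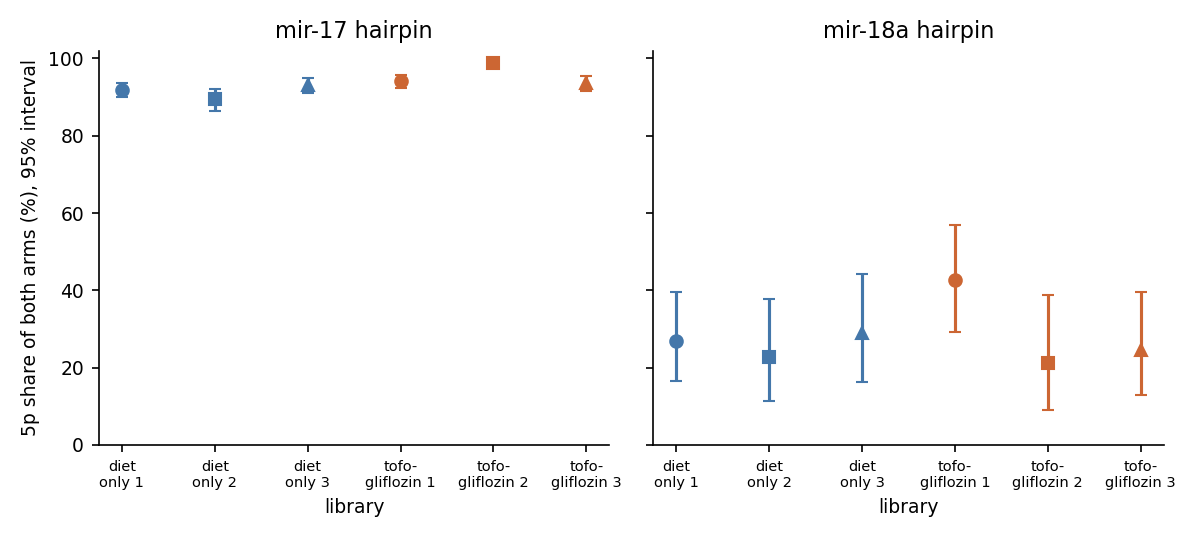
Share of the 5p arm in the counts of both arms (%) at mir-17 and mir-18a in each library, with 95% Clopper-Pearson intervals that cover counting error only. At mir-17 tofogliflozin mouse 2 stood at 98.9% and the other 5 libraries at 89.6% to 94.2%; at mir-18a the intervals were wide and overlapped.

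The cluster is not the only source of its seeds. RefSeq names with counts that share AUUGCAC with miR-92a-3p were miR-25-3p, miR-32-5p, miR-92b-3p and miR-363-3p, and those that share AAAGUGC with miR-17-5p were miR-20b-5p, miR-93-5p, miR-106a-5p and miR-106b-5p. Of the AUUGCAC counts miR-92a-3p held 72.1%, 73.9% and 71.7% in diet-only mice 1, 2 and 3, and 75.7%, 78.1% and 74.3% in tofogliflozin mice 1, 2 and 3. These shares did not overlap (exact permutation p = 0.1, the smallest possible). Summed, the family stood at 2642 ± 76.9 CPM in diet-only mice against 3144 ± 143 CPM in tofogliflozin mice (SD over 3 mice). miR-25-3p, next in abundance, was at 629 ± 31.7 against 627 ± 25.5 CPM (SD over 3 mice), and its log2 fold change was -0.04 ± 0.11 (SE). Of the AAAGUGC counts miR-17-5p and miR-20a-5p together held 36.3% to 43.9%, less than their paralogs, of which miR-93-5p was the most abundant. Their share overlapped between the groups (exact permutation p = 0.3). This family stood at 237 ± 24.4 CPM in diet-only mice against 329 ± 112 CPM in tofogliflozin mice (SD over 3 mice), with 453 CPM in tofogliflozin mouse 2 and a mean of 268 CPM over the other 2 tofogliflozin mice. The GUGCAAA seed was held by the miR-19 arms alone. Of the AAGGUGC counts, which were few, miR-18a-5p held 54% to 85%, and the groups overlapped (exact permutation p = 0.9).

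**Figure D5:**
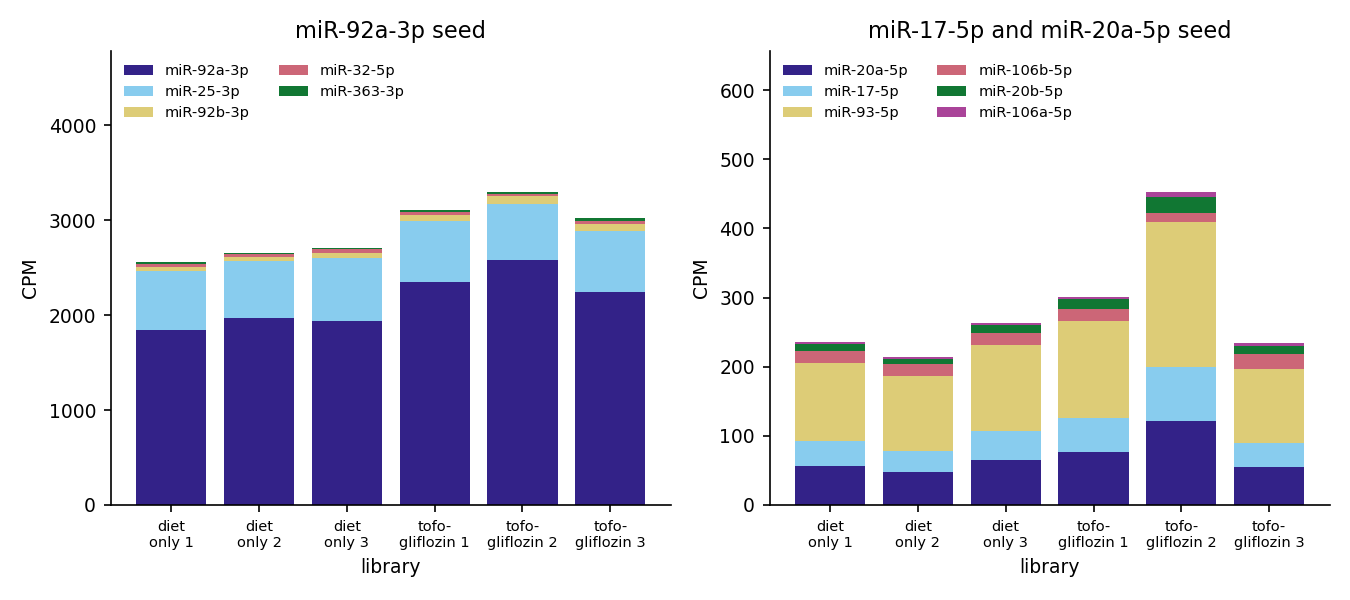
CPM in each library of the miRNAs that share the seed of miR-92a-3p (left) or of miR-17-5p and miR-20a-5p (right), stacked by miRNA, bars from 0. miR-92a-3p makes up 71.7% to 78.1% of the left bars, and tofogliflozin mouse 2 is the tallest bar on the right at 453 CPM.

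Of 9 seed-sharing miRNAs from paralogous hairpins, 8 passed the filter and 0 passed the threshold, where 0% of all tested miRNAs did. Their median log2 fold change was 0.41 and 5 were above 0. Over all 460 tested miRNAs the median was -0.005 and 49.1% were above 0. miR-92b-3p (0.59 ± 0.16, SE), miR-363-3p (0.46 ± 0.17) and miR-20b-5p (0.69 ± 0.29) had an unadjusted p under 0.05, as had 5% of all tested. The adjusted p of each was 0.854 by edgeR. In CPM the groups did not overlap for miR-20b-5p, miR-106a-5p, miR-363-3p and miR-92b-3p, all higher with tofogliflozin. They overlapped for the other paralogs, where 6.74% of all tested miRNAs were higher without overlap. The separation in CPM was thus not particular to arms of the cluster. miR-106a-5p (0.80 ± 0.36) differs from miR-17-5p at 1 base, so reads could pass between them. Without tofogliflozin mouse 2 miR-20b-5p was at 0.36 and miR-106a-5p at 0.37, and miR-17-5p and miR-20a-5p at 0.23 and 0.18, as given above. miR-93-5p (0.37 ± 0.25) was at 0.07 without it.

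The miRNAs outside these families with the profile nearest to the mean log2 CPM of the 8 members were sought by the SD of the log2 difference over the 6 libraries. Of 443 compared, these were miR-3068-5p (SD 0.0775), miR-145a-5p (0.0970), miR-99b-3p (0.111), miR-143-5p (0.118) and miR-339-3p (0.119), against a median of 0.394. Of these, miR-143 and miR-145a are known from smooth muscle. The members themselves lay further from the mean of the other members, with an SD of 0.148 (miR-19b-3p) to 0.927 (miR-17-3p). The mean is thus a blend of unlike profiles, and nearness to it is not nearness to each arm. The mean of the members was 0.27 above its own average in tofogliflozin mouse 2, 0.22 above in tofogliflozin mouse 1 and 0.25 below in tofogliflozin mouse 3, so the last was lowest of all 6 libraries.

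Markers of other cells were read beside these results. Red blood cells are known to contain miR-92a. The 6 erythroid markers, none of them at 0 in every library, summed to 94.4 to 335 CPM in diet-only mice, and to 176 to 461 CPM in tofogliflozin mice, highest in mouse 2, and 3 of 4 tested were above 0. The 6 leukocyte markers summed to 139 to 185 CPM and 132 to 197 CPM, again highest in tofogliflozin mouse 2, with 1 above 0 and 5 below. The hepatocyte miRNA miR-122-5p was at 39.0 to 78.0 CPM in diet-only mice, and at 48.0 to 248 CPM in tofogliflozin mice, the highest value also in mouse 2. The endothelial pair of miR-126a arms, a cell type in which miR-92a is well known, summed to 17490 to 22040 CPM and 15430 to 21950 CPM. The smooth muscle pair miR-143-3p and miR-145a-5p summed to 53150 to 56760 CPM in diet-only mice, and to 32140 to 61360 CPM in tofogliflozin mice, lowest in mouse 2. Of this pair 1 was above 0 and 1 below. miR-145a-5p, a small part of the sum, was by itself highest in tofogliflozin mouse 2, at 427 CPM. None of these markers passed the threshold, all sums overlapped between the groups, and their part in the members' values was not tested.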

How the data were processed

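Small RNA of renal cortex was sequenced from 6 mice, 3 per group, per the labels. The authors deposited whole-number read counts, 1 table per library with 2033 rows (1 per mature miRNA and precursor), not normalized. Per the submitters' processing notes, cutadapt 1.14 and mm10 were used, with roles, aligner, counter and miRBase release not given in the sources used here. Libraries held 8598518 to 29766679 counts over all rows. Of 75 names with several rows, 28 had differing rows, and the largest count per library was kept for every name. Members and lists were chosen with earlier results of these data known. edgeR 4.0.16 (R 4.3.3) was run with TMM factors (0.958 to 1.05), filterByExpr (smallest count 10, smallest total 15), a quasi-likelihood F-test, 2-sided, and Benjamini-Hochberg adjustment over 460 miRNAs at 0.05. SE is the absolute log2 fold change over the square root of F. CPM values are counts per 1000000 with no further scaling unless stated. Log2 CPM for the principal component, nearest profiles, mean of the members and replicate correlations used TMM factors and a prior count of 2. Arm ratios used limma 3.58.1 with hairpins of at least 10 mean counts in the lower arm. Permutation tests were exact, of 20 arrangements, on log2(CPM + 0.5), shares or log2 ratios with 0.5 added to each count. SDs from counting take Poisson errors of both counts. Counts lack molecular identifiers, so intervals and floors cover counting error only. Named miRNAs were all members, the other arms of their hairpins, seed-sharing paralogs, the 5 nearest profiles and marker lists. Listed miR-142a and miR-486a or miR-486b appear in the tables as miR-142, miR-486 and miR-3107. DESeq2 1.42.0, limma-voom and other settings served as alternatives. The edgeR and limma steps were tested on simulated data with changes larger than those of the members. Recovery of changes as small as theirs was not tested.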

Additional observations from a re-analysis of the deposited data

How the results depend on the processing

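All alternatives were planned but the overlap of groups in scaled CPM and the family sums without tofogliflozin mouse 2, which were chosen after seeing the data. Members whose groups did not overlap numbered 2 in CPM and 1 with TMM or RLE factors. No member passed the threshold in any of 125 member values under alternatives, and no member changed direction with other size factors, filters, tools, row handling or the block. The filter of 10 CPM in 3 libraries left 5 members, and requiring 50 counts in the lower arm left none of mir-17, mir-18a and mir-92a-1, so these gave no value. Called miRNAs over the whole table numbered 10 with no low-count filter (1026 tested) and 2 with DESeq2, otherwise 0. No hairpin was called for its arm ratio. Members above 0 numbered 5 to 7 with 1 library left out, and the log2 ratio of the summed 8 arms ran from 0.257 to 0.385. Some values changed sign when 1 library was left out, and the cause was not tested. Log2 fold changes then ran from -0.072 to 0.484 for miR-18a-3p, -0.29 to 0.114 for miR-19a-3p, -0.272 to 0.636 for miR-92a-1-5p, -0.158 to 0.129 for miR-106b-5p and -0.029 to 0.216 for miR-99b-3p. The arm ratio difference ran from -0.219 to 0.451 for mir-18a and from -0.629 to 0.409 for mir-92a-1, which was also above 0 with a pseudocount of 5 (0.079). Share differences, in percentage points, ran from -1.36 to 0.34 for miR-92a-3p, -0.107 to 0.892 for miR-20a-5p, -0.00669 to 0.616 for miR-17-5p, -0.0423 to 0.0148 for miR-19b-3p, -0.00531 to 0.0144 for miR-18a-5p and -0.0194 to 0.00829 for miR-18a-3p. miR-106b-5p was also above 0 with library size alone (0.023), DESeq2 (0.001) and differing rows summed (0.014). Unadjusted p-values under 0.05 numbered 11 to 75 with 1 library left out, against 23, with 75 (3 of them members) without tofogliflozin replicate 3. No member was among them in 4 of these 6 fits, nor with upper quartile factors or the block.

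Replicate numbers recur in both groups, but libraries of one number showed no shared deviation: the correlations over 460 miRNAs, which are not independent, were 0.00274, -0.135 and -0.172, and 0 libraries were closest to their own number. A fit with the replicate block called 0 miRNAs, gave miR-92a-3p a log2 fold change of 0.279 (adjusted p = 0.961 by edgeR) and had 10 miRNAs at an unadjusted p under 0.05.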
